A study of Rattus norvegicus with 6 samples.

Results

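The genes described here encode the liver's conjugating transferases: the glutathione transferases (symbols beginning with Gst and a letter and number, and the microsomal Mgst genes), the UDP-glucuronosyltransferases (Ugt) and the sulfotransferases (Sult). They were taken by symbol from the probe annotation, and where a gene had several probe sets (groups of short probes for a transcript), its brightest on average across the 6 arrays stood for it. This gave 46 genes of the 14217 genes with a probe set of their own: 20 Gst, 3 Mgst, 9 Ugt and 14 Sult genes. Of these, 35 passed the brightness filter, which left out the lowest 40% of probe sets, below 5.83 on the log2 scale, and 10372 genes of the whole array were tested. The symbols alone decided membership.

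Liver RNA came from 6 Sprague-Dawley rat pups aged 3 weeks, that is, at weaning, and was hybridised to Affymetrix rat expression arrays, 1 per sample. In the control group (3 samples) the mothers ate standard chow, and in the high fat group (3 samples) they ate a high fat diet; the diet named is the mother's. The labels state no other treatment and neither tie the pups to litters nor say whether tissue was pooled; each sample is called a pup here. All values below are log2 signals, and changes are high fat minus control. Levels of different genes are not compared, since each probe set has its own brightness.

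These enzymes carry out the conjugation step of detoxification, in which a polar group is attached to a foreign or internal compound so that it can leave in bile or urine. Glutathione transferases join glutathione to electrophiles and to products of lipid peroxidation, glucuronosyltransferases attach glucuronic acid to bilirubin, steroids, bile acids and drugs, and sulfotransferases move sulfate from the donor PAPS onto phenols, steroids and bile acids. Many of the genes are known to be induced through the receptors and factors that sense such compounds: NRF2 at antioxidant response elements, the aryl hydrocarbon receptor at xenobiotic response elements, and the nuclear receptors PXR, CAR and PPAR alpha.

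The arrays carried the labelled tissue. Of 10 hepatocyte markers listed, 9 were on the array and all 9 passed the filter, with a log2 of their summed level of 17.83 to 17.89 in controls and 17.76 to 17.82 in high fat pups. High fat replicate 1 also carried exocrine pancreas transcripts: the summed level of 9 pancreas genes was 15.64 there and 11.32 and 11.69 on the other high fat arrays. High fat replicate 3 differed from the other 5 pups in sex-linked RNA, with Xist at 4.45 against 12.46 to 13.31 and Eif2s3y at 11.14 against at most 3.99; Uty, also on the array, was at 10.26 there and 10.64 to 11.20 elsewhere. Control replicate 3 had the largest difference between the 3' and 5' control probe sets of Gapdh and beta-actin, 3.06 against 1.92 to 2.46 elsewhere, a measure that rises with RNA breakdown. No listed marker outside the sex-linked genes was at 0 on any array.

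No transferase gene passed limma's adjusted p of 0.05; over all genes 4 of 10372 did, 0.0386%. At an unadjusted p under 0.05, limma gave 10 of the 35 tested members, 28.6%, against 14% of all genes; 6 were higher (all genes 6.55%) and 4 lower (all genes 7.49%). A looser list, which adds a minimum of 1.5-fold, held 7 members, 20.0%, against 6.69% of all genes. Of these, 5 were higher in high fat pups (all genes 3.34%) and 2 were lower (all genes 3.36%). The groups did not overlap for 11 members, 31.4%, against 20.8% of all genes, with high fat higher for 6 (all genes 9.26%) and lower for 5 (all genes 11.6%). The median change over the 35 was 0.0040, and over all genes tested -0.02. The transferases thus had no common direction: 18 were higher, where 46.9% of all genes were, and 17 were lower, and 16 differed by less than 0.25. The looser list shrank to 4 members without control replicate 2, without control replicate 3 and with the 3' to 5' difference as a covariate; Gstp3 and Gstm2 stayed in it in all 15 alternatives run.

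**Figure D1:**
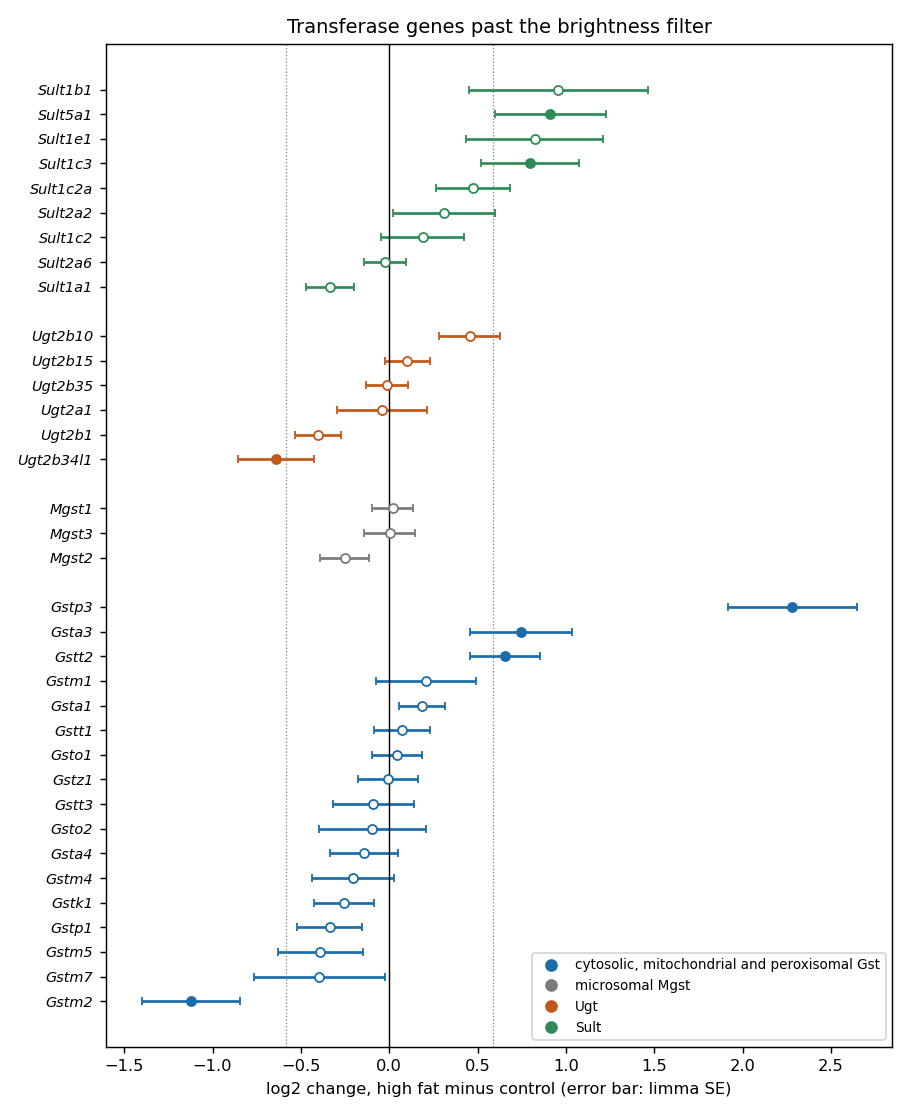
Log2 change, high fat minus control, of the 35 transferase genes past the brightness filter, grouped by family, with limma's standard error as bars. Filled points are the 7 members of the looser list, dotted lines mark 1.5-fold; Gstp3 at 2.28 and Gstm2 at -1.12 are the farthest from 0.

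The largest difference was in the pi class. Gstp3, which encodes a pi class glutathione transferase, was at 11.06, 10.61 and 9.73 in controls and at 13.02, 12.94 and 12.28 in high fat pups. Every high fat pup lay more than a log2 unit above the highest control. The means were 10.47 ± 0.68 (SD, n = 3) and 12.75 ± 0.41 (SD, n = 3), a 4.86-fold difference (log2 change 2.28, SE 0.36, limma adjusted p = 0.141), with a range of 1.91 to 2.58 when 1 array was left out. Gstp1, the long-known placental form that is used as a marker of preneoplastic liver foci in the rat, was at 9.75, 9.63 and 9.56 in controls and at 9.05, 9.67 and 9.22 in high fat pups. Its groups overlapped through high fat replicate 2 (log2 change -0.34, SE 0.18, limma adjusted p = 0.473). These 2 genes are next to each other on chromosome 1 in the RefSeq gene table, with 0 coding genes between them. The difference between their changes was not tested.

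The start regions of this gene pair are shown because neighbours of one class had such different values. They run from 250 bases before to 50 bases after the RefSeq start in GRCr8, 5′ to 3′ on the gene's strand, and capitals mark any match, on either strand, to TGACNNNGC (the core of the antioxidant response element), TGANTCA (an AP-1 site) or GCGTG (the core of the xenobiotic response element).
Gstp3 promoter, chr1:210787635-210787934 (minus strand): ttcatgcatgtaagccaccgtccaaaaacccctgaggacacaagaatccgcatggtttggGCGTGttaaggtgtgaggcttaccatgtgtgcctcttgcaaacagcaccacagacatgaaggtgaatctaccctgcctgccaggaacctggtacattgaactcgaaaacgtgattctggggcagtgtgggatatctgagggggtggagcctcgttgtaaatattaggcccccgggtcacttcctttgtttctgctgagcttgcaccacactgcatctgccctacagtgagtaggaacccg
Gstp1 promoter, chr1:210769656-210769955 (minus strand): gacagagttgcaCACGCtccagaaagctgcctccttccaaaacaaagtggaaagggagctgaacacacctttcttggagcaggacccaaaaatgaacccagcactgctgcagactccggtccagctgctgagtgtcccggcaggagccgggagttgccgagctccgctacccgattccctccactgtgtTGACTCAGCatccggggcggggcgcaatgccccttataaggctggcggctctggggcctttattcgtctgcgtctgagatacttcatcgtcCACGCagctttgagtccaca
The Gstp1 window holds TGACTCAGC, in which the antioxidant and AP-1 patterns overlap, and 2 copies of the xenobiotic core, while the Gstp3 window holds 1 copy of the xenobiotic core. A match to such short letters is a description of the window and does not show binding.

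In the alpha class, whose members are major hepatic glutathione transferases, Gsta3 was at 11.57, 12.03 and 12.41 in controls and at 13.24, 12.43 and 12.57 in high fat pups. The groups did not overlap, but control replicate 3 and high fat replicate 2 nearly met. The difference was 1.68-fold (log2 change 0.75, SE 0.29, limma adjusted p = 0.327), and the change was 0.50 without high fat replicate 1, the array with pancreas transcripts. Its neighbour Gsta1 was at 14.02, 14.24 and 14.14 in controls and at 14.42, 14.32 and 14.22 in high fat pups, with overlapping groups (0.19, SE 0.13). Gsta4, which prefers the lipid peroxidation product hydroxynonenal, was at -0.14 (SE 0.19). A probe set annotated to both Gsta5 and Gsta2 was at 13.65, 13.85 and 14.35 in controls and at 14.31, 13.70 and 14.32 in high fat pups (0.16, SE 0.25, limma adjusted p over probe sets 0.837); it cannot be given to either gene. With the 3' to 5' covariate that probe set was at 0.46.

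The mu class mostly lay lower. Gstm2 was at 10.41, 10.17 and 9.94 in controls and at 8.65, 8.85 and 9.64 in high fat pups. All high fat values were below all control values, with replicate 3 the closest. The means were 10.17 ± 0.24 (SD, n = 3) and 9.05 ± 0.52 (SD, n = 3), 2.18-fold lower (log2 change -1.12, SE 0.28, limma adjusted p = 0.204), and -1.42 to -0.93 when 1 array was left out. The other mu members tested did not separate the groups. Gstm5 was at 8.12, 8.72 and 8.04 in controls and at 7.80, 7.66 and 8.25 in high fat pups (-0.39, SE 0.24), and Gstm7 at -0.40 (SE 0.37) and Gstm4 at -0.20 (SE 0.23) also had lower means. Gstm1 was at 12.66, 13.77 and 13.51 in controls and at 13.41, 13.57 and 13.58 in high fat pups (0.21, SE 0.28), and turned to -0.12 without control replicate 1, its lowest array. Of the 7 mu genes, 5 were tested, and all but Gstm1 had lower means, with a median of -0.39 over the 5.

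Beside the lower values of Gstm2, markers of sinusoidal endothelium also lay lower. The summed level of 8 such markers was 14.31 to 14.55 in controls and 13.51 to 13.90 in high fat pups, all 8 had lower means, and none was at 0. The summed level of 7 bile duct markers was also lower, at 12.63 to 12.88 in controls and 12.11 to 12.28 in high fat pups. Of the 4 tested bile duct markers, however, 3 had higher means and 1, Cdh1, a lower one, with a median of 0.22. The summed hepatocyte level was slightly lower in high fat pups, and its groups nearly met, with 7 of 9 means lower. Summed levels of the macrophage and stellate cell lists overlapped between groups. Single markers in them did not all overlap: of 10 stellate cell markers, 3 were higher and 2 lower without overlap. Of 8 macrophage markers, 2 were lower without overlap. Over all genes 20.8% did not overlap. Fewer cells of a type and less RNA per cell cannot be told apart in whole liver, and the part of the endothelial markers in the Gstm2 values was not tested.

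The start regions of Gsta3, at the first of its listed starts, and of Gstm2 are shown as those of the alpha and mu genes with the largest differences, in opposite directions and marked as above.
Gsta3 promoter, chr9:31154739-31155038 (plus strand): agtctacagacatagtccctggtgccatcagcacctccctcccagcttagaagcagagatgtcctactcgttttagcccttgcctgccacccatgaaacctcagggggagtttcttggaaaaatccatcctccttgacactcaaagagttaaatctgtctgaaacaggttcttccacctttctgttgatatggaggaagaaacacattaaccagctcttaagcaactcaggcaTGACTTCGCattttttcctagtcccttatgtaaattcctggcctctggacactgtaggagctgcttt
Gstm2 promoter, chr2:198316868-198317167 (minus strand): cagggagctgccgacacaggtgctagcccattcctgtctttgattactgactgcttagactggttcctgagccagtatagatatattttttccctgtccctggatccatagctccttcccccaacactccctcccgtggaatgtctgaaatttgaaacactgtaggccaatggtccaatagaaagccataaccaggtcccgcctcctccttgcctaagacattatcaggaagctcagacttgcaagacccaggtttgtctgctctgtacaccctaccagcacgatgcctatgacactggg
The Gsta3 window holds TGACTTCGC, an antioxidant core, close to the start, and the Gstm2 window holds none of the 3 patterns; the other listed start of Gsta3 holds the xenobiotic core. Start regions were matched for 31 of the 35 tested members. The antioxidant core was found in 6 of the 31, 19.4%, against 12.06% of all 33469 promoters of 300 bases; these were Gsta1, Gsta3, Gstm5, Gstm7, Gstp1 and Gstz1. The AP-1 pattern was found in 5, 16.1%, against 7.33%, and the xenobiotic core in 8, 25.8%, against 29.7%. A member with several listed starts was counted if any of them matched, while the share of all promoters counts each start singly. The shares are therefore not strictly alike. Among the 6 members of the looser list with a start region, only Gsta3 held the antioxidant core, 0 held the AP-1 pattern and 3 held the xenobiotic core. No match says only that these letters are not in this window.

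In the theta class, which conjugates small halogenated compounds, Gstt2 was at 10.74, 10.76 and 11.35 in controls and at 11.72, 11.46 and 11.64 in high fat pups. The groups did not overlap, with control replicate 3 close to the high fat values (1.58-fold, log2 change 0.66, SE 0.20, limma adjusted p = 0.256). A second, dimmer probe set of Gstt2 had the opposite sign, -0.19 (SE 0.37), so the direction for this gene depends on the probe set. Gstt1 (0.07, SE 0.16) and Gstt3 (-0.09, SE 0.23) were near 0.

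The other soluble forms had overlapping groups. Gstz1, which also acts in tyrosine breakdown as maleylacetoacetate isomerase, was at -0.0068 (SE 0.17), Gsto1, an omega class thiol transferase, at 0.04 (SE 0.14), Gsto2, which was below the brightness limit on 2 arrays, at -0.09 (SE 0.30) and Gstk1, the form of mitochondria and peroxisomes, at -0.26 (SE 0.17). Gstk1 was at 13.19, 13.37 and 13.71 in controls and at 13.05, 13.19 and 13.26 in high fat pups, with overlapping groups. The microsomal Mgst1, a membrane-bound peroxidase and transferase, was at 14.80, 14.84 and 14.87 in controls and at 14.88, 14.82 and 14.87 in high fat pups. After quantile normalization this was the narrowest spread of the 3 microsomal genes, with a change of 0.02 (SE 0.11). On the values as deposited the change of Mgst1 was -0.16, so its sign depends on the normalization. Mgst3 was at 12.28, 12.38 and 12.54 in controls and at 12.57, 12.38 and 12.26 in high fat pups, fully overlapping (0.0040, SE 0.14). Mgst2 was at 12.69, 12.83 and 13.03 in controls and at 12.57, 12.57 and 12.66 in high fat pups, a small difference without overlap (-0.25, SE 0.14, limma adjusted p = 0.471).

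**Figure D2:**
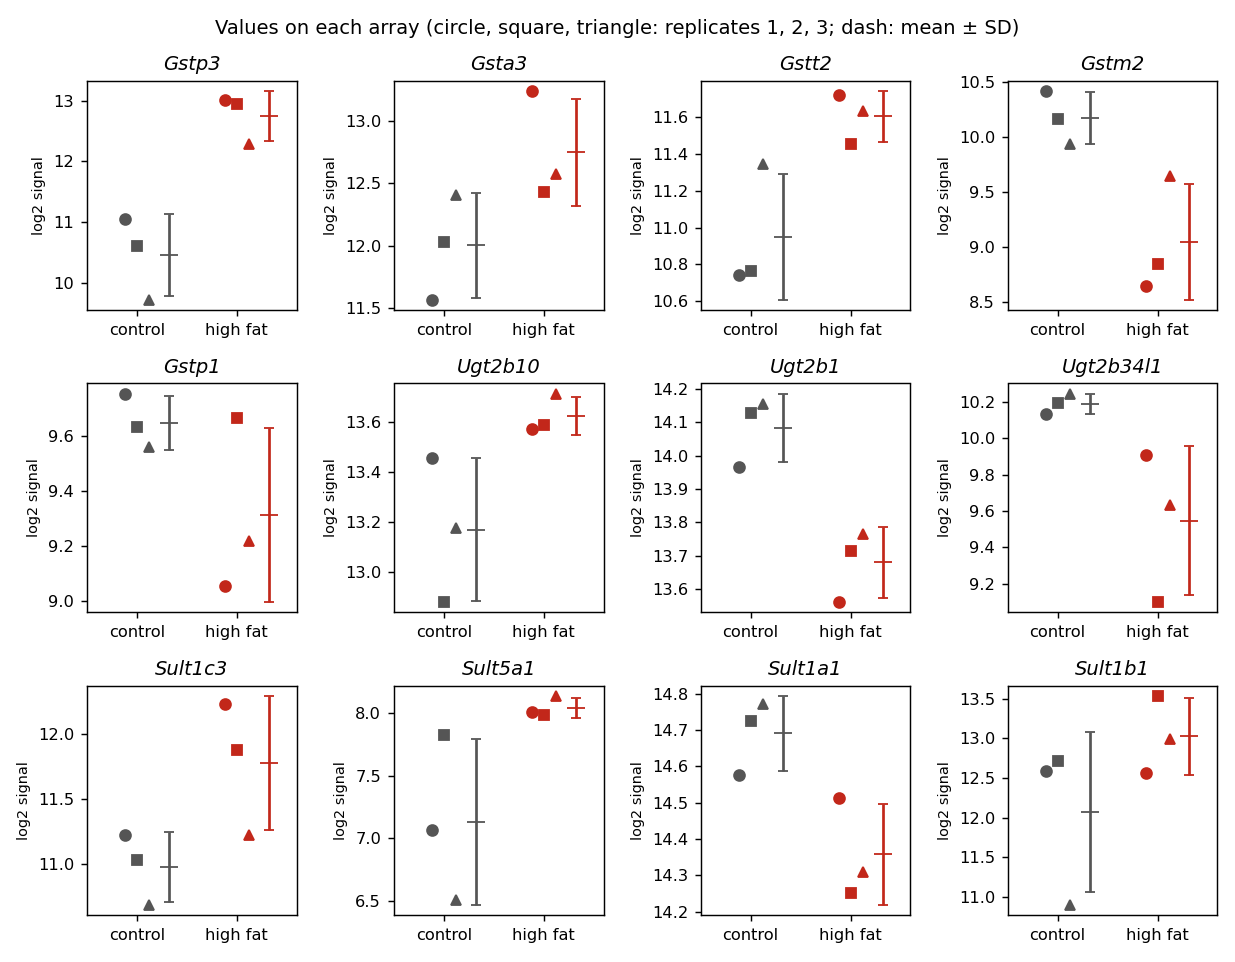
Log2 signal on each array for 12 transferase genes, with circles, squares and triangles for replicates 1, 2 and 3 of each group and a dash with bars for the mean ± SD; each panel has its own axis range. The groups separate for every gene shown except Gstp1 and Sult1b1, and for Gsta3 and Sult1c3 the nearest arrays of the groups almost touch.

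Among the glucuronosyltransferases, the 3 members with an unadjusted limma p under 0.05 were in neighbouring Ugt2b genes and had different signs. Ugt2b1 was at 13.97, 14.13 and 14.15 in controls and at 13.56, 13.71 and 13.77 in high fat pups, tight within each group and without overlap (1.32-fold lower, -0.40, SE 0.13, limma adjusted p = 0.276). Next to it, Ugt2b10 was at 13.46, 12.88 and 13.17 in controls and at 13.57, 13.59 and 13.71 in high fat pups. Here all high fat pups were higher, with controls the more variable group (1.37-fold, 0.46, SE 0.17, limma adjusted p = 0.318). The gene after that, Ugt2b34l1, was at 10.13, 10.19 and 10.24 in controls and at 9.91, 9.10 and 9.63 in high fat pups (1.56-fold lower, -0.64, SE 0.21, limma adjusted p = 0.284). Its controls lay close together and high fat replicate 2 was the lowest; without that array the change was -0.42.

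The remaining glucuronosyltransferases tested were close to 0. Ugt2b15 was at 13.56, 13.58 and 13.77 in controls and at 13.76, 13.78 and 13.67 in high fat pups (0.10, SE 0.13). Ugt2a1 ranged from 7.29 to 7.69 in controls and from 6.97 to 7.91 in high fat pups (-0.04, SE 0.25). Neither these nor Ugt2b35, at -0.01 (SE 0.12), separated the groups. The 8 Ugt1a forms, which include the bilirubin-conjugating Ugt1a1, are made from one gene with alternative first exons and a shared end, and both of their probe sets were annotated to all 8, so no single form was measured. The brighter of these was at 14.39, 14.58 and 14.68 in controls and at 14.58, 14.43 and 14.67 in high fat pups (0.0057, SE 0.15, limma adjusted p over probe sets 0.991). The other was at 13.42, 13.92 and 14.04 in controls and at 13.94, 13.74 and 13.99 in high fat pups (0.10, SE 0.20). Both had fully overlapping groups. Of all probe sets tested, 6 of 18625, 0.0322%, passed the adjusted threshold and 12.2% had an unadjusted p under 0.05; none of the 4 shared transferase probe sets did either, and all 4 had overlapping groups, where 19% of probe sets did not overlap.

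Sulfotransferases had the highest family median, 0.47, with 7 of 9 tested genes higher, where 46.9% of all genes were, and 2 lower. The family's median deviation from the control mean was uneven: 0.80 on high fat replicate 2, and 0.08 and 0.24 on replicates 1 and 3. The groups did not overlap for 3 of the 9, 33.3%, against 20.8% of all genes, with high fat higher for 2 and lower for 1. Sult1c3, a phenol and hydroxyarylamine sulfotransferase, was at 11.22, 11.03 and 10.69 in controls and at 12.23, 11.87 and 11.22 in high fat pups. High fat replicate 3 was level with the highest control to 2 decimals (1.74-fold, 0.80, SE 0.28, limma adjusted p = 0.294). Without that array, the one that differed in sex-linked RNA, the change was 1.07, and without high fat replicate 1 it was 0.57. The related Sult1c2a was at 10.59, 10.85 and 10.83 in controls and at 11.53, 11.35 and 10.81 in high fat pups, again with replicate 3 among the controls (0.47, SE 0.21, limma adjusted p = 0.374). Sult1c2 was at 0.19 (SE 0.23), and a probe set annotated to it and RGD1562392 together was at -0.24 (SE 0.20).

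Sult5a1 was at 7.06, 7.83 and 6.50 in controls and at 8.01, 7.99 and 8.14 in high fat pups. The high fat pups were alike and controls spread over more than a log2 unit (1.88-fold, 0.91, SE 0.32, limma adjusted p = 0.292). The change was 0.60 without control replicate 3 and 1.26 without control replicate 2. Sult1b1, which acts on thyroid hormone and phenols, was at 12.59, 12.71 and 10.90 in controls and at 12.56, 13.53 and 12.99 in high fat pups; its groups overlapped, control replicate 3 lay apart, and the change of 0.96 (SE 0.51) was 0.37 without that array. Sult1e1, the estrogen sulfotransferase, was at 5.80, 6.12 and 6.10 in controls, near the brightness limit, and at 6.02, 6.81 and 7.67 in high fat pups, highest on replicate 3 (0.82, SE 0.39, limma adjusted p = 0.403), and was at 0.41 without that array. Whether sex has a part in the Sult1c3, Sult1c2a and Sult1e1 values was not tested.

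Sult1a1, the main phenol sulfotransferase of liver, went the other way. It was at 14.58, 14.72 and 14.77 in controls and at 14.51, 14.25 and 14.31 in high fat pups, without overlap (1.26-fold lower, -0.33, SE 0.14, limma adjusted p = 0.345). In the Sult2 family of hydroxysteroid and bile acid sulfotransferases, Sult2a6 was nearly level on all arrays, from 14.72 to 14.88 (-0.02, SE 0.12, and -0.18 on the values as deposited), and Sult2a2 was at 0.31 (SE 0.29). Sult2a probe sets may share signal, as these genes are close copies of each other.

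The 11 members left out as dim were Gsta3l1, Gstm3, Gstm6l, Ugt2b, Ugt2b7, Ugt8, Sult1d1, Sult2a1, Sult2b1, Sult4a1 and Sult6b2. Their groups all overlapped, and 9 of the 11 were below the brightness limit on all 6 arrays. Ugt2b was an exception with one bright array: control replicate 2 was at 8.67, and the other 5 arrays were at 3.66 to 4.95. Sult2b1 passed the limit on control replicate 3, at 6.50, and on high fat replicate 2, at 5.86. Sult2a1, a bile acid sulfotransferase, was at 4.08, 3.07 and 2.17 in controls and at 0.00, 4.64 and 4.56 in high fat pups, below the limit throughout.

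**Figure D3:**
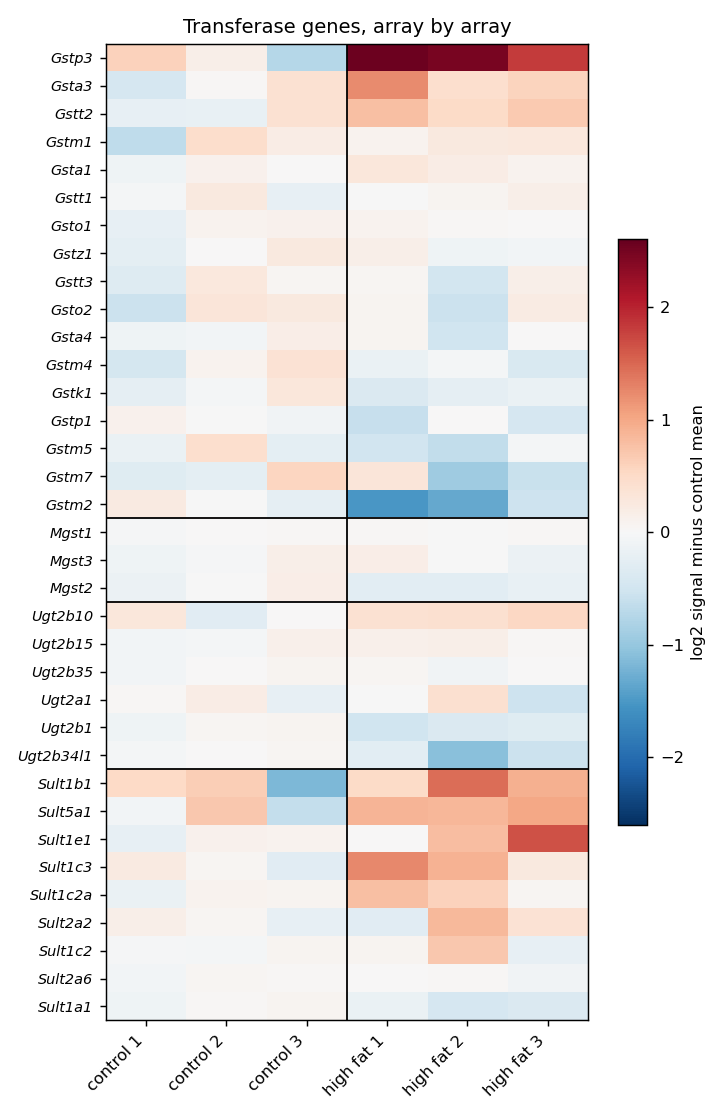
Log2 signal minus the control mean for the 35 tested transferase genes (rows, by family and falling change) on the 6 arrays (columns); red is above and blue below the control mean. Most rows stay pale on all arrays, Gstp3 is dark red on all 3 high fat arrays, and high fat replicate 2 has the highest median of the Sult rows, 0.80, against 0.08 and 0.24 on the other high fat arrays.

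Some gene clusters held members of both signs and others did not. In the chromosome order of the RefSeq table, Ugt2b1, Ugt2b10 and Ugt2b34l1 follow each other with 0 coding genes between them, at -0.40, 0.46 and -0.64. Gstm2, at -1.12, is followed directly by Gstm1, at 0.21. Gsta3 and Gsta1 are also direct neighbours, both with higher means, at 0.75 and 0.19. In the Sult1c cluster all 3 genes, Sult1c2a, Sult1c2 and Sult1c3, had higher means. Differences between neighbours were not tested, and probe sets of close copies may share signal.

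**Figure D4:**
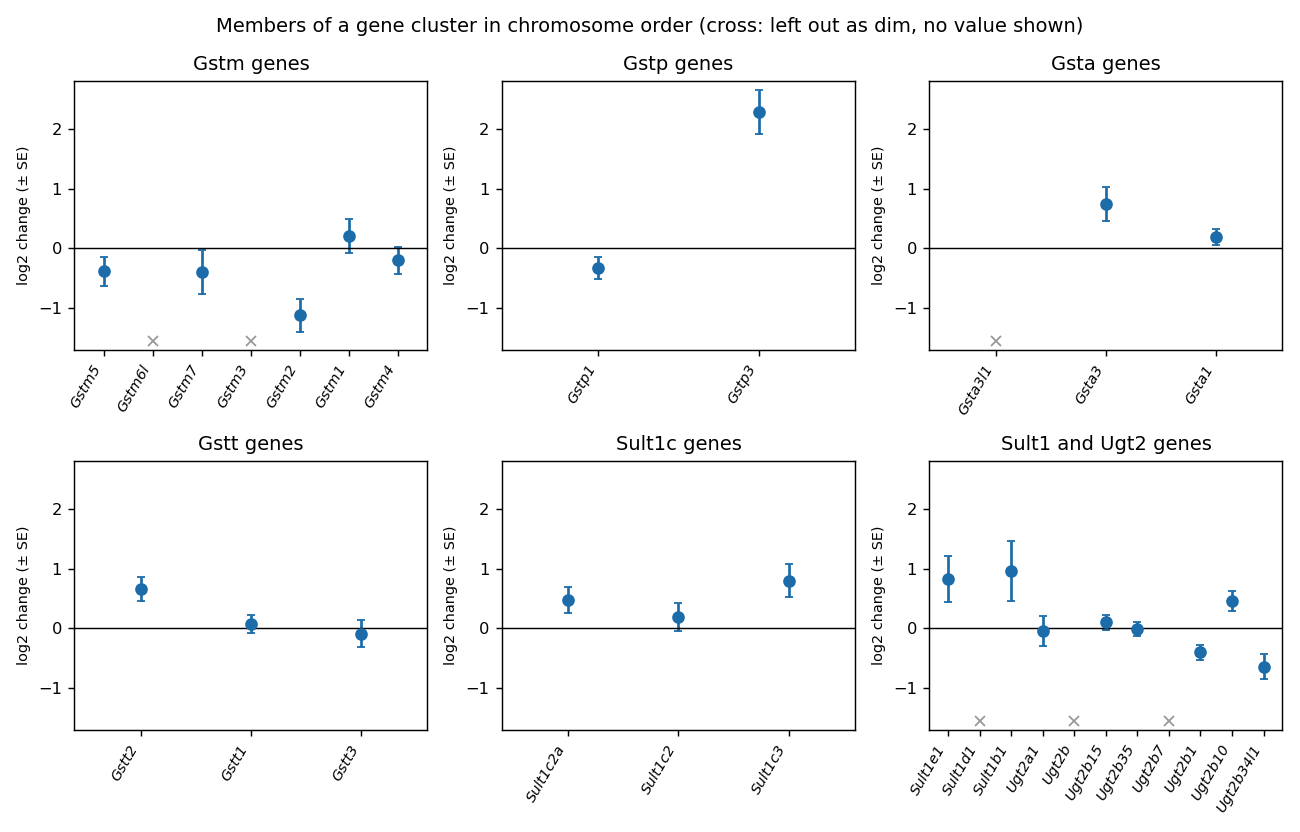
Log2 change ± limma SE of transferase genes that lie in the same chromosome cluster, in their order along the chromosome and not to scale of distance; crosses are members left out as dim. Gstp1 and Gstp3 lie at -0.34 and 2.28, and the last 3 Ugt2b genes alternate at -0.40, 0.46 and -0.64.

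Genes that supply the transferases were read from lists chosen by function, with earlier results of these data known. Of 15 tested genes of glutathione supply and recycling, 10 were higher and 5 lower, with a median of 0.09. None passed the adjusted test, and the looser list held 3 higher and 1 lower, beside 3.34% and 3.36% of all genes. The cystine transporter Slc7a11 was at 4.43, 5.56 and 4.87 in controls and at 6.16, 7.58 and 6.49 in high fat pups (1.79, SE 0.43, limma adjusted p = 0.196). All 3 controls were below the brightness limit of 5.83, so this gene passed the filter only through its high fat values. Its place among the 3 higher genes rests on that, and the size is uncertain. With values below the limit raised to it, the change was 0.92. Both subunits of glutamate-cysteine ligase, the rate-limiting step of glutathione synthesis, lay higher without overlap, Gclc at 1.19 (SE 0.32) and Gclm at 0.79 (SE 0.15). Oplah, which returns oxoproline to glutamate, was at -0.75 (SE 0.17).

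For UDP-glucuronate, 7 of 10 genes were higher and 3 lower, with a median of 0.11 and none in the looser list; Ugdh, which makes the donor, was at 0.40 (SE 0.25) and 0.21 without high fat replicate 2, Slc35b1 at -0.46 (SE 0.23) and -0.21 without control replicate 1, and Akr1a1 at -0.21 (SE 0.14). For sulfate, 8 of 9 genes were lower and 1 higher, with a median of -0.09 and none in the looser list. Bpnt1, which removes the spent donor PAP, was at -0.49 (SE 0.16), the PAPS synthase Papss1 at -0.27 (SE 0.19), or -0.078 without control replicate 1, and Sts, the steroid sulfatase, at 0.46 (SE 0.20), or 0.29 without high fat replicate 3. Of 9 tested genes in a list of export pumps, 4 were higher and 5 lower (median -0.10), none in the looser list. Among them Abcc2, the bile canalicular pump for glutathione and glucuronide conjugates, was at 0.60 (SE 0.38), Abcc6 at -0.54 (SE 0.26) and Abcc4 at -0.48 (SE 0.30). Abcc2 was at 0.33 when high fat replicate 2 was left out and at 1.07 when replicate 1 was. Without control replicate 3, Abcc6 was at -0.30 and Abcc4 at -0.14.

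Of 14 other conjugating enzymes, 7 were higher and 7 lower, and the 2 in the looser list, where 6.69% of all genes were, were methyltransferases with lower values. Nnmt, which methylates nicotinamide, was at 11.66, 10.92 and 11.31 in controls and at 8.87, 10.75 and 10.26 in high fat pups (-1.34, SE 0.47, and -0.79 without high fat replicate 1), and Tpmt, which methylates thiopurines, was at -0.71 (SE 0.18). The N-acetyltransferase Nat1 (-0.51, SE 0.14) and the glycine methyltransferase Gnmt (-0.57, SE 0.17) had lower values short of 1.5-fold. Of 12 relatives of the glutathione transferases with symbols of another kind, 9 were higher and 3 lower; Ptges, a microsomal prostaglandin synthase, was at -0.76 (SE 0.24) and the only one in the looser list, where it stayed in 8 of 14 alternatives. Of its high fat values, 5.35 and 5.50 were below the brightness limit, as was the high fat mean of 5.63. Ptges thus passed the filter through its control values. The change was -0.49 with values below the limit raised to it. The largest positive values there were Mars1, a tRNA synthetase with a domain of this fold, at 0.58 (SE 0.15), and Ptges2 at 0.34 (SE 0.17).

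Of 16 regulators tested, 11 were higher and 5 lower, with a median of 0.24. The looser list held 3 higher and 1 lower, beside 3.34% and 3.36% of all genes. Nfe2l2, which encodes NRF2, was at 11.50, 11.08 and 11.53 in controls and at 11.31, 11.39 and 11.06 in high fat pups, with overlapping groups (-0.12, SE 0.18), and its inhibitor Keap1 was at -0.20 (SE 0.15). Of the small Maf genes, whose proteins pair with NRF2 on DNA, Maff was at 2.23 (SE 0.62) and Mafk at 0.59 (SE 0.19), both without overlap, and Mafg was at 0.13 (SE 0.24) with overlapping groups. The Maff controls 4.08 and 4.98 were below the brightness limit, as was the control mean of 5.17. Maff, counted among the 3 higher, thus passed the filter through its high fat values. Its change was 1.37 with values below the limit raised to it. Ppara was at 1.29 (SE 0.19, limma adjusted p = 0.131), and Nr1h3, the oxysterol receptor LXR alpha, at -0.76 (SE 0.19). The drug receptors Nr1i2 (PXR, 0.27, SE 0.37) and Nr1i3 (CAR, 0.39, SE 0.46) had overlapping groups.

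Genes known to be induced with the transferases went in both directions, 8 of 14 higher and 6 lower (median 0.18). In the looser list were 2 higher and 2 lower, beside 3.34% and 3.36% of all genes. Ephx1, the microsomal epoxide hydrolase, was at 1.04 (SE 0.27) and Srxn1, an NRF2 target, at 1.04 (SE 0.41), or 0.60 without high fat replicate 2. Nqo1, a quinone reductase and another NRF2 target, was at 12.97, 11.92 and 11.81 in controls and at 10.41, 11.77 and 11.04 in high fat pups, the reverse direction (-1.16, SE 0.43, limma adjusted p = 0.308). Cyp1a1, the main target of the aryl hydrocarbon receptor, was at -2.33 (SE 0.74) and at -1.38 without high fat replicate 2. None of these genes passed the adjusted test.

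**Figure D5:**
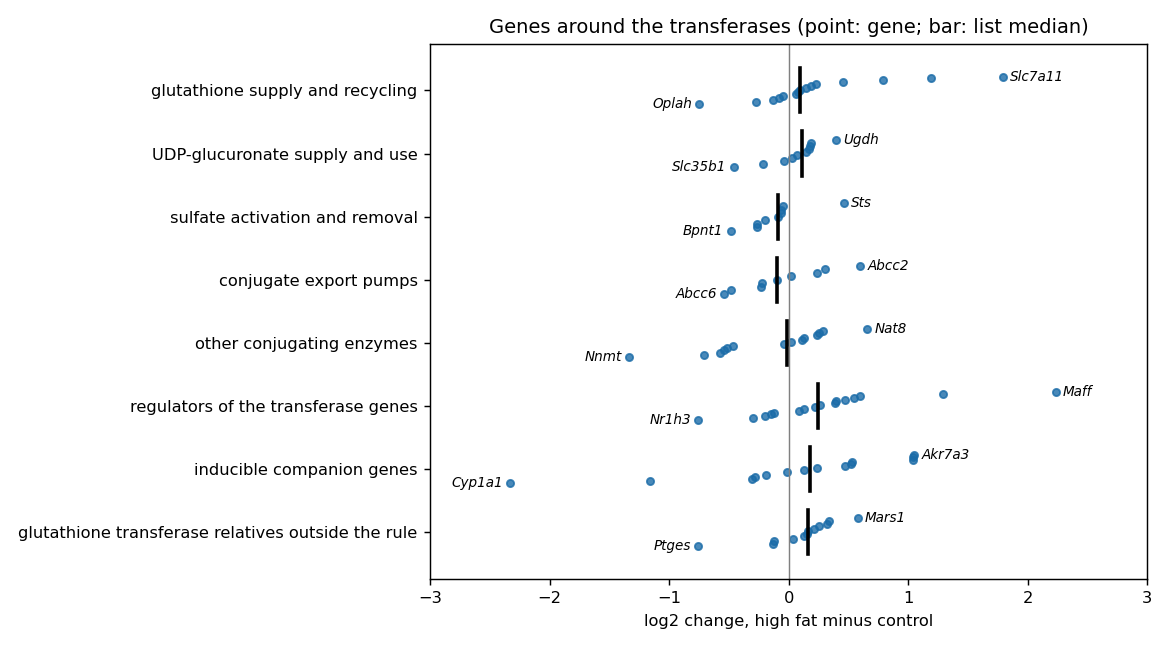
Log2 change, high fat minus control, of each tested gene (points) in 8 lists of genes around the transferases, with the list median as a black bar and the lowest and highest gene named. Medians lie between -0.10 and 0.24, and single genes reach from -2.33 for Cyp1a1 to 2.23 for Maff, of whose controls 2 were below the brightness limit.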

How the data were processed

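Values were the authors' deposited log2 signals, 1 column per array; per the labels' protocols RNA was extracted with TRIzol and labelled with a 3' IVT kit. Which program summarized the probes is not known from these sources. The log2 base was found from the values: undoing it gives each array a 2% trimmed mean of 500.2. Each array held 91 to 144 values of exactly 0 among 31099 probe sets.

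Quartiles differed between arrays by up to 0.22, so arrays were quantile-normalized without the 57 control probe sets. Of the other 31042, 20826 had 1 gene in the annotation, 436 several and 9780 none; symbols were updated by gene ID for 20758. Several-gene probe sets entered only a fit over probe sets. The test was limma's moderated fit (version 3.58.1, R 4.3.3), 2-sided, adjusted by Benjamini-Hochberg across all 10372 genes that passed the filter. The procedure was tested on simulated data. Figures used matplotlib 3.10.9 in Python 3.11.15. Start regions were RefSeq's, GRCr8; the files name no build, so gene positions were used for order alone.

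Nothing in the labels separates litters, so p-values measure only the spread between these samples, and the number of arrays limits precision. Members, lists and tests were chosen with earlier results of these data known. Any member could be named; values on each array were given for looser-list members, for up to 4 further members per family and for 10 anchor genes where measured. The looser-list genes of each pathway list, or otherwise the 3 with the smallest p, were named. Nat1, Gnmt, Mars1, Ptges2, Nfe2l2, Keap1, Mafg, Nr1i2 and Nr1i3 were named besides, after their values were seen.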

Additional observations from a re-analysis of the deposited data

How the results depend on the processing

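In none of the 15 alternatives run did a tested transferase gene pass limma's adjusted threshold. The looser list held 7 members as reported. That list held 4 with the 3' minus 5' covariate, 2 with a minimum fold of 2, and 4 to 8 with 1 array left out. All 7 kept their sign in every alternative. Without control replicate 3, Sult1c3, Sult5a1 and Ugt2b34l1 left the list; without control replicate 2, Gsta3, Gstt2 and Sult1c3 did; the causes were not tested. With the replicate number as a block the list held 7, 6 of them as reported, with Sult1e1 for Gsta3; deviations of same-numbered arrays correlated at -0.13, -0.13 and -0.14, so the numbers were not taken as pairs.

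The count of all genes past the adjusted threshold was 4 as reported, 1 without the filter, 7 with low values raised to the limit, 0 with the replicate block or the covariate, and 0 to 4 with 1 array left out (0 without control replicate 1 or 3). In limma, all genes with an unadjusted p under 0.05 were 1102 with the block, 1100 with the covariate, and 1308 and 1145 without control replicate 1 and 3. One shared probe set, that of Gsta5 and Gsta2, had an unadjusted p under 0.05 with the covariate (1 against 0).

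The sign turned in at least 1 alternative for 14 of the 35 members, none of them in the looser list. With the covariate, Gsta4 was at 0.043, Gstm7 at 0.044, Gsto2 at 0.20, Gstt1 at -0.00923, Gstt3 at 0.073, Gstz1 at 0.16 and Ugt2b35 at 0.043. With values as deposited, Mgst1 was at -0.16 and Mgst3 at -0.013, and with array weights Mgst3 was at -0.011. With 1 array left out, Gsta4 ran from -0.25 to 0.044, Gstm1 from -0.12 to 0.43, Gsto1 from -0.068 to 0.10, Gsto2 from -0.38 to 0.14, Gstt1 from -0.032 to 0.20, Gstt3 from -0.25 to 0.105, Gstz1 from -0.14 to 0.12, Mgst3 from -0.080 to 0.077, Sult1c2 from -0.065 to 0.39, Sult2a6 from -0.062 to 0.015, Ugt2a1 from -0.27 to 0.21 and Ugt2b35 from -0.047 to 0.027. Levels near the floor have no detection call here.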
